A study of Mus musculus with 40 samples.

Results

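The 9 genes described here are Siglech, Ccr9, Runx2, Klk1, Tcf4, Cox6a2, Rnase6, Ly6d and Cybb, all of them known as genes of plasmacytoid dendritic cells (pDCs). They are 9 of the 21958 gene rows of the deposited count table and were picked by symbol from their Ensembl identifiers. They were chosen with earlier results from these same libraries known, so their levels and fitted changes are given as a description, without p-values. Where a member is said to be called at an adjusted p under 0.05, that too is a description and no test of the member. The group was divided by what B-lineage cells are known to transcribe: Siglech, Ccr9, Runx2, Klk1 and Cox6a2 are rarely ascribed to B cells, while Tcf4, Rnase6, Ly6d and Cybb are also B-lineage genes.

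Plasmacytoid dendritic cells arise in the bone marrow and are known for releasing type I interferon when their endosomal Toll-like receptors meet nucleic acids. They carry B220 on their surface, as B cells do, and share with the B lineage the E protein E2-2, encoded by Tcf4, which maintains pDC identity. Siglec-H is the lectin-like receptor most used to recognise them in mice, CCR9 is a chemokine receptor that directs them to the gut and thymus, and Runx2 is a transcription factor needed for their exit from marrow. Cox6a2 encodes the heart and skeletal muscle form of subunit VIa of cytochrome c oxidase, the last enzyme of the respiratory chain, and is also known as a gene of pDCs.

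Libraries were made from 100 sorted donor cells each. The mutant groups came from 5 chimeric mice whose marrow was homozygous for the P198A missense allele (proline to alanine, made by CRISPR/Cas9) of ZIP7, an intracellular zinc transporter encoded by Slc39a7, and the WT groups from 5 mice with wild-type marrow. All hosts were lethally irradiated CD45.1 animals taken 8 weeks after transfer, the sorted cells were CD45.1-CD45.2+, and their ages were not stated in the sources used here. From each mouse came 1 library each of FrB (pro-B gate, B220+ CD43+ CD24+ BP1-), FrC (its gate not stated there), FrD (late pre-B gate, B220+ CD43- IgM- IgD-) and FrE (immature B gate, B220+ CD43- IgM+ IgD-), which makes 8 groups of 5 and 40 libraries in all. The labels name no antibody against a dendritic cell marker. The chimeras test the allele in donor-derived blood cells only, within an irradiated host, and the titles' abbreviation KO stands for a missense allele, whose RNA level does not check the genotype.

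Endogenous totals ran from 42111 counts (FrE of mutant mouse 9) to 43372070, with the second lowest at 1723215 and a median of 16474388. In 10 libraries, 8 mutant and 2 WT, genes with only 1 to 9 counts made up over 15% of those detected. Among the mutants, these low-complexity libraries are those of mice 4, 8, 9 and 10 in FrB, mice 5, 9 and 10 in FrC and mouse 9 in FrE, and among WT mice those of mouse 3 in FrD and mouse 7 in FrE. Results that rest on them are given with and without them. Cd79a, which helps define the labelled B lineage, was present in every library, at 139 to 11203 CPM (counts per 1000000 endogenous counts). Slc39a7 ran from 0 CPM (FrC of mouse 9, where 0 counts allow up to 1.74 CPM) to 268 CPM in the mutant libraries, against 2.15 to 343 CPM in the WT libraries.

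Per-library values below follow mouse numbers, 4, 5, 8, 9 and 10 for mutants and 1, 2, 3, 6 and 7 for WT. Because a library pools 100 cells, fewer cells of a type and less RNA per cell cannot be told apart. The reads were amplified and carry no molecular identifiers, so limits and intervals drawn from counts cover counting error only.

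Siglech, Ccr9, Runx2 and Klk1 were near 0 in many libraries and well above 10 CPM in others. Siglech was over 50 CPM in 18 libraries, under 10 CPM in 20 and in between in 2. All 4 genes reached 1 CPM in 14 libraries, none did in 11, and 1 to 3 of them did in 15. In the map of all 9 genes the top 4 rows are alike in many libraries but not in each, and the lower 5 rows are mostly bright outside FrC. Exceptions there are Rnase6 in FrB of mutant mice 8 and 9 (3.61 and 0.74 CPM) and Cox6a2 in FrE of WT mouse 7 (0.70 CPM).

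**Figure D1:**
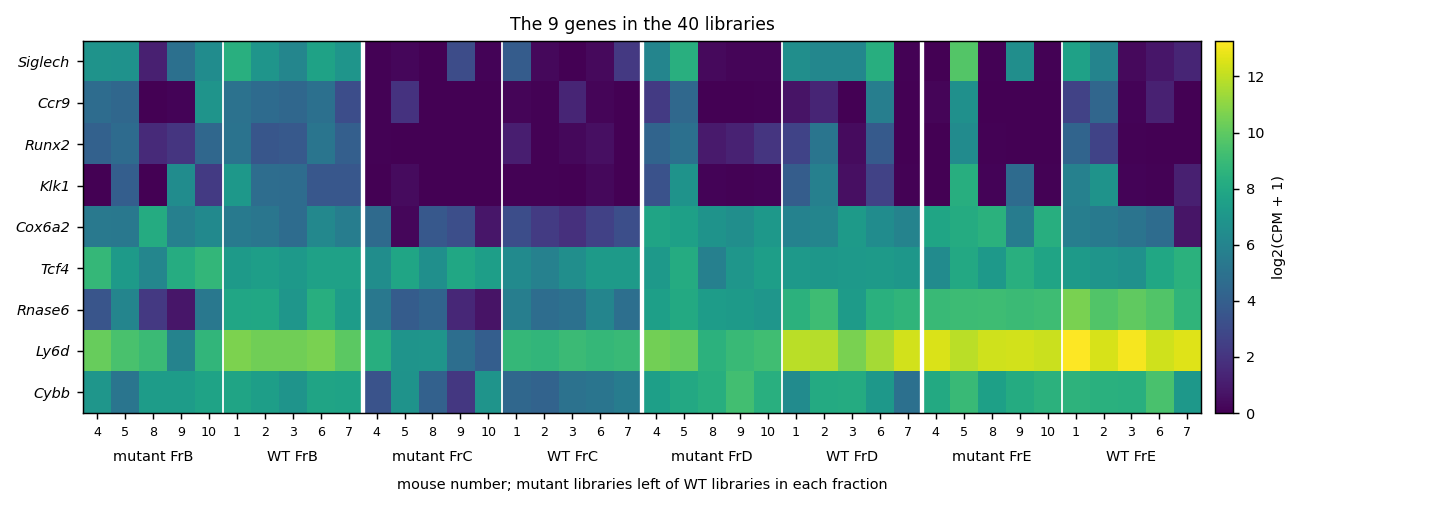
Level of the 9 genes (rows) in the 40 libraries (columns, by mouse number), as log2(CPM + 1); mutant libraries stand left of WT libraries in each fraction. Siglech, Ccr9, Runx2 and Klk1 are bright in the 5 WT FrB libraries, dark in FrC and bright in only some FrD and FrE libraries, whereas Ly6d, Tcf4 and Cybb reached 1 CPM in all 40.

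The promoters of Siglech and of the 3 members most like it over the libraries (Runx2, Klk1 and Ccr9) are shown because E2-2 and Runx2 are both DNA-binding proteins with known short target motifs. Each window runs from 250 bases before to 50 bases after the annotated start, 5′ to 3′ on the gene's own strand, from RefSeq for build GRCm38.p6, and capitals mark CANNTG, the E-box of E proteins, and TGTGGT or its complement ACCACA, the core RUNX motif. In the Runx2 window the E-boxes overlap ACCACA matches, so that both are in 1 run of capitals. The windows are at chr7:55767934-55768233 (plus strand) for Siglech, chr9:123766961-123767260 (plus strand) for Ccr9, chr17:44814578-44814877 (minus strand) for Runx2 and chr7:44225110-44225409 (plus strand) for Klk1.
Siglech: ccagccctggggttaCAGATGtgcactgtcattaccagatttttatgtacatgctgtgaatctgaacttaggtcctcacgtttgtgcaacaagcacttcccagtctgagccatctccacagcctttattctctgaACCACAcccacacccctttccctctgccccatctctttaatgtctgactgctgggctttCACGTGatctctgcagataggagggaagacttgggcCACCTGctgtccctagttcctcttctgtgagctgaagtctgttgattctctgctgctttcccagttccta
Ccr9: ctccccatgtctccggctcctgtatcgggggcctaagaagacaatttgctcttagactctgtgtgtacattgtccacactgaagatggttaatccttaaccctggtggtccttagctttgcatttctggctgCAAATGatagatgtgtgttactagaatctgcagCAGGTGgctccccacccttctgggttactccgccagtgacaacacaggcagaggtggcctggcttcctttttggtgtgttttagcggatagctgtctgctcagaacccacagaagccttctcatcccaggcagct
Runx2: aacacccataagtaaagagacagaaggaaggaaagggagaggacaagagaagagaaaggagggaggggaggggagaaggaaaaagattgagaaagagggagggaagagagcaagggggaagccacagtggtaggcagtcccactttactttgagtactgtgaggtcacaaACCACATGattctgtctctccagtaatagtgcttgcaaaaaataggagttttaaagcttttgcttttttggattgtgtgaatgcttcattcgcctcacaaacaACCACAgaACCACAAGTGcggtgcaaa
Klk1: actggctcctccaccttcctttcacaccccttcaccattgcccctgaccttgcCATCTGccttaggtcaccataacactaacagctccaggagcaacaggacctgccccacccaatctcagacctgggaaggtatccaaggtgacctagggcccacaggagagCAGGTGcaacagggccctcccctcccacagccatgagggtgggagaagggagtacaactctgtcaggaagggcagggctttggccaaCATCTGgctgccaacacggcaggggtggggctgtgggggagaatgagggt

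The windows hold 3 CANNTG matches for Siglech, 2 for Ccr9, 2 for Runx2 and 3 for Klk1. Of all 32851 promoter windows in the table, 72.3% hold at least 1 CANNTG, so a match is common. The E-box CAGGTG, counted on both strands and a subset of CANNTG, is present 1 time each in the Siglech, Ccr9 and Klk1 windows and absent from that of Runx2, against 20.2% of all windows. TGTGGT, on either strand, is present 3 times in the Runx2 window and 1 time in that of Siglech, and in 16.8% of all windows. These are matches of letters only. Promoter windows were found for 6 of the 9 genes, and those of Rnase6 and Cybb are not printed.

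Siglech lies on chromosome 7 (55768178 to 55778925, plus strand, GRCm38 as are all gene positions here, from GENCODE M21). In FrB it was at 112, 109.7, 1.21, 28.7 and 85.4 CPM in the mutant libraries, against 328, 119, 67.4, 196 and 120.1 CPM in the WT libraries. Every FrB library therefore had Siglech counts, though that of mutant mouse 8, a low-complexity library, had only 3, and the genotypes overlapped. FrC was close to empty, with 0.054, 0.16, 0, 7.54 and 0.1 CPM in mutant and 13.3, 0.2, 0, 0.27 and 3.53 CPM in WT libraries. In those groups 1 mutant and 1 WT library had no Siglech count, which allows up to 0.079 and 0.22 CPM (3 counts of the total). In FrD the values were 63.7, 326, 0.26, 0.14 and 0.13 CPM in mutants, against 93.2, 69.5, 70.0, 319 and 0.042 CPM in WT. Mutant mouse 5 and WT mouse 6 stood highest, and WT mouse 7 held a single count. FrE ran from 0 to 836 CPM in mutants (0, 836, 0.048, 95.0 and 0.053 CPM), against 194, 62.1, 0.27, 0.72 and 1.57 CPM in WT. Mutant mouse 5 was the highest library of the series, and the 95.0 CPM of mutant mouse 9 rest on 4 counts (95% Wilson interval 36.9 to 244 CPM).

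Ccr9 (chromosome 9, 123678439 to 123784330, plus strand) was high in mostly the same libraries. In FrB it was at 24.8, 20.8, 0, 0.11 and 116 CPM in mutants and 30.5, 24.3, 20.7, 29.3 and 7.81 CPM in WT. Mutant mice 8 and 9 were empty there or nearly so, while mutant mouse 10 was above every WT library. The 10 FrC libraries ran up to 2.82 CPM in mutants and up to 1.59 CPM in WT. In FrD the mutants had 3.74, 21.5, 0, 0.023 and 0.042 CPM and the WT mice 0.65, 1.57, 0, 50.1 and 0 CPM. In FrE the mutants had 0.15, 99.1, 0, 0 and 0 CPM and the WT mice 5.24, 19.6, 0.11, 1.30 and 0 CPM. Mutant mouse 5 was highest of the mutants in both, as for Siglech, and WT mouse 6 (FrD) and WT mouse 2 (FrE) were highest of the WT mice. In FrE the 0 of mutant mouse 9 comes from 42111 counts in all and allows up to 71.2 CPM. The annotated gene overlaps Slc6a20a and Lztfl1 on the other strand, and no strand setting of the counting is known, so their reads cannot be told apart with certainty. The GENCODE span of Ccr9 begins upstream of the RefSeq start used for its promoter window, which lies inside that span.

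Runx2 (chromosome 17, 44495987 to 44814797, minus strand) was at 16.6, 24.3, 2.01, 3.18 and 20.6 CPM in mutant FrB, against 32.7, 10.8, 12.3, 34.5 and 15.3 CPM in WT FrB. No FrC library passed 1.13 CPM, and the 5 mutant FrC libraries held 1 count among them. FrD had 18.1, 29.0, 0.97, 1.41 and 3.10 CPM in mutants and 5.44, 34.7, 0.31, 12.3 and 0 CPM in WT. Here the 3 mutant libraries with under 1 CPM of Siglech (mice 8, 9 and 10) kept 0.97 to 3.10 CPM of Runx2. FrE had 0, 85.0, 0.048, 0 and 0 CPM in mutants, where mouse 8 held 1 count and mouse 5 was highest, against 18.1, 5.47, 0.053, 0 and 0 CPM in WT. The 0 of mutant mouse 9 there comes from 42111 counts in all and allows up to 71.2 CPM (3 counts). Runx2 overlaps Supt3 on the other strand.

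Klk1, which encodes tissue kallikrein, a secreted serine protease, lies on chromosome 7 (44225360 to 44229618, plus strand). Mutant FrB had 0, 14.4, 0, 87.8 and 3.85 CPM, against 132, 26.2, 25.1, 10.98 and 11.2 CPM in WT FrB. Mutant mice 4 and 8 had no Klk1 count there, although mouse 4 had 112 CPM of Siglech, so the 4 genes did not match in each library. FrC was at most 0.31 CPM in either genotype. FrD had 9.04, 112, 0.1, 0.046 and 0.085 CPM in mutants and 14.1, 54.3, 0.47, 5.18 and 0.042 CPM in WT, and FrE 0, 322, 0.097, 23.7 and 0.053 CPM in mutants and 56.1, 110.3, 0.11, 0.072 and 1.22 CPM in WT. Mutant mouse 5 was again the highest library in both fractions, and the 23.7 CPM of mutant mouse 9 in FrE are 1 count. Klk1 has close paralogs such as Klk1b27, whose pattern was alike (up to 82.8 CPM in FrE of mutant mouse 5), so reads may be shared between them, and it overlaps the antisense pseudogene Gm10109 (at most 5.84 CPM).

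**Figure D2:**
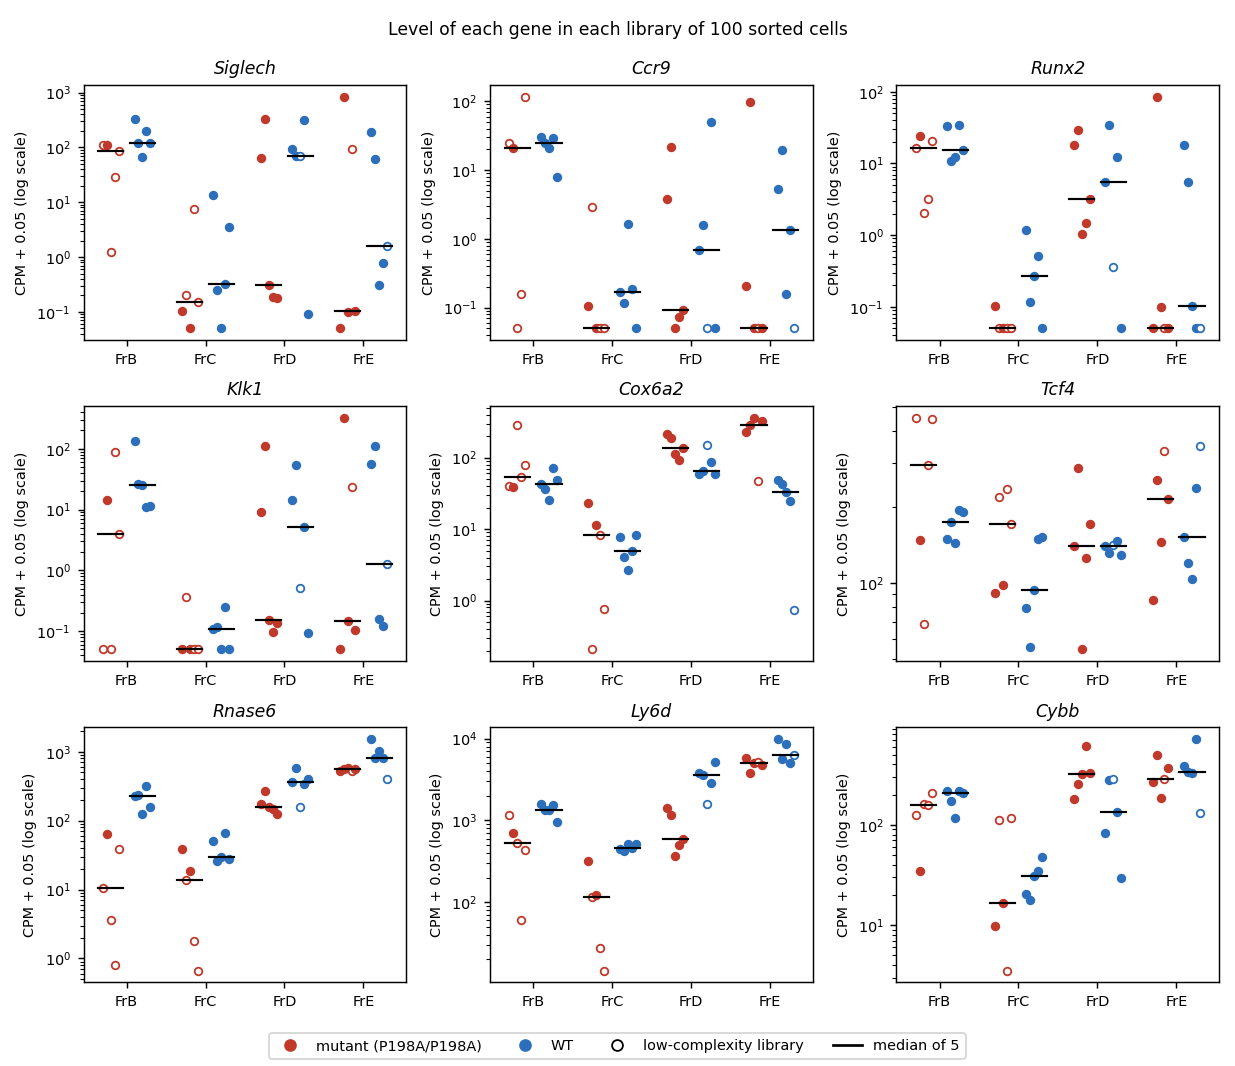
Level of each of the 9 genes in each library, as CPM + 0.05 on a log axis, by fraction, mutant (red) left of WT (blue); open points are low-complexity libraries and bars are medians of 5. The libraries of Siglech, Ccr9, Runx2 and Klk1 spread from under 1 CPM to well over 10 CPM within FrD and FrE, while those of Tcf4 stay between 54.3 and 452 CPM in all groups.

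Likeness to Siglech over the 40 libraries was measured as Pearson's r of log2(CPM + 1) among 9610 genes with at least 1 CPM in at least 5 libraries and a mean of at least 5 CPM. Runx2 was the gene most like Siglech (r = 0.85), Klk1 the third (0.82) and Ccr9 the fifth (0.77). The others of the top 10 were Cd300c (0.83), P2ry14 (0.80), Lair1 (0.76), Cd7 (0.74), Klk1b27 (0.73), Klra17 (0.69) and Clec10a (0.65), of which Cd300c and Lair1 encode inhibitory or paired immune receptors of the immunoglobulin superfamily and P2ry14 a receptor for UDP-sugars. Cd300c had its highest medians in FrB, 11.9 CPM in WT and 11.2 CPM in mutants. Its highest single value was in mutant FrE (maximum 100.0 CPM, median 0 CPM), against a maximum of 13.7 CPM and a median of 4.87 CPM in WT FrE. Tcf4 ranked 62nd (0.42), Cox6a2 168th (0.32), Cybb 315th (0.27), Ly6d 330th (0.27) and Rnase6 429th (0.24). The points share animals across fractions, and depth and complexity differ between them, so r is a description. Without the 10 low-complexity libraries r was 0.94 for Runx2, 0.91 for Klk1, 0.88 for Ccr9, 0.50 for Tcf4 and 0.24 for Cox6a2.

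**Figure D3:**
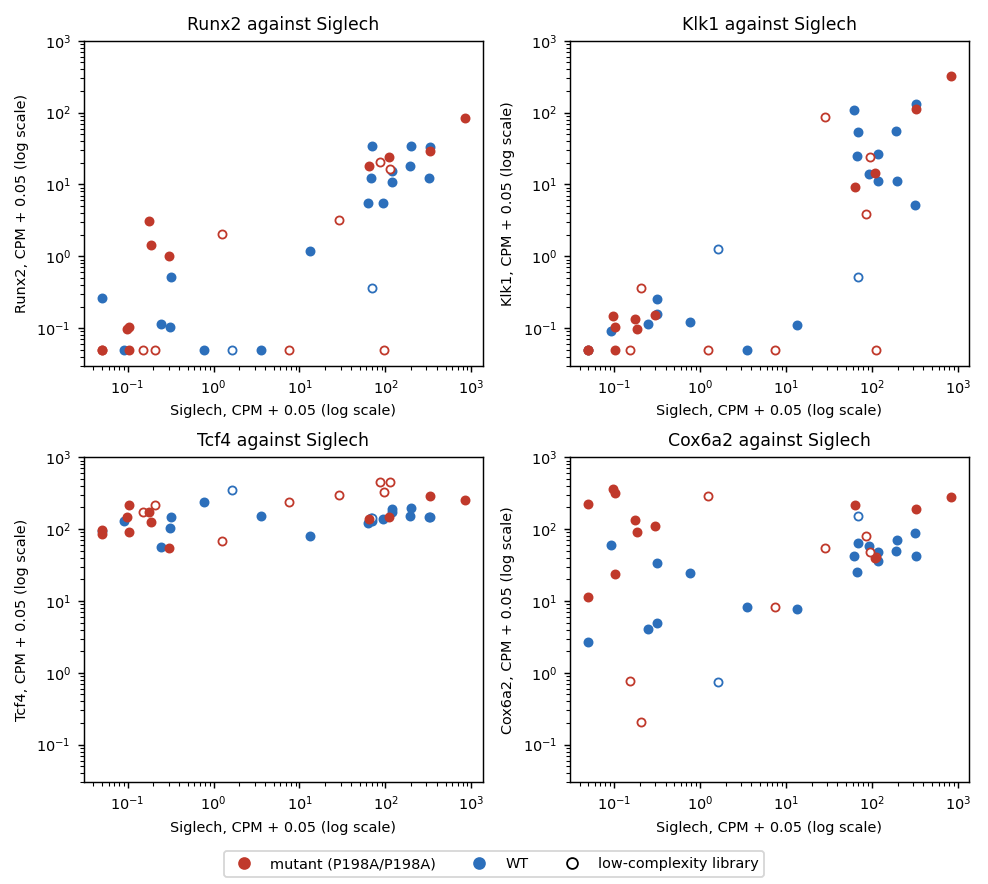
Runx2, Klk1, Tcf4 and Cox6a2 (vertical axes) against Siglech (horizontal axes) in the 40 libraries, all as CPM + 0.05 on log axes; mutant libraries are red, WT libraries blue and low-complexity libraries open. Runx2 and Klk1 are high mostly to the right, where Siglech is over 50 CPM, whereas Tcf4 (r = 0.42) and Cox6a2 (r = 0.32) are spread more loosely, and Cox6a2 is over 200 CPM at both ends.

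Cox6a2 (chromosome 7, 128205435 to 128206387, minus strand) had counts in all 40 libraries and did not follow Siglech. Its level was highest in mutant FrE, at 225, 282, 359.7, 47.5 and 323 CPM, against 49.3, 42.6, 33.2, 24.6 and 0.7 CPM in WT FrE. The mutant libraries were above every WT library except that of mouse 9, whose value rests on 2 counts (95% Wilson interval 13.0 to 173 CPM). The means were 247 ± 122 CPM in mutant and 30.1 ± 18.9 CPM in WT FrE (SD, n = 5 each). In mutant mouse 8, FrE held 360 CPM of Cox6a2 beside 0.048 CPM of Siglech, which was 1 count. In mutant mouse 5, with the highest Siglech of all, Cox6a2 was at 282 CPM, within the range of its group.

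FrD was the next highest fraction, with 216, 189, 111, 91.8 and 135 CPM in mutants and 58.9, 64.7, 152, 87.9 and 59.3 CPM in WT. The groups overlapped through WT mouse 3, a low-complexity library, and without it the 5 mutant libraries were all above the 4 WT libraries. WT mouse 7 had 59.3 CPM of Cox6a2 and 0.042 CPM of Siglech in FrD. In FrB the values were 40.4, 39.2, 289, 54.0 and 78.9 CPM in mutants and 42.4, 36.0, 25.2, 71.1 and 47.8 CPM in WT, with the low-complexity library of mutant mouse 8 far above the others. FrC was lowest, with 23.5, 0.16, 11.4, 8.12 and 0.72 CPM in mutants and 7.67, 3.96, 2.60, 4.89 and 8.26 CPM in WT.

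Ordered by median, the 8 groups were mutant FrE (282 CPM), mutant FrD (135 CPM), WT FrD (64.7 CPM), mutant FrB (54.0 CPM), WT FrB (42.4 CPM), WT FrE (33.2 CPM), mutant FrC (8.12 CPM) and WT FrC (4.89 CPM). Each neighbouring pair in this order overlapped in its libraries. The titles end in a numeric code. By its last digits the libraries were split here into 2 sets, whose meaning the titles do not state. Within 1 of them the FrE values were 225 to 360 CPM in 3 mutants and 24.6 to 42.6 CPM in 2 WT mice, and within the other they were 47.5 and 282 CPM in 2 mutants and 0.70 to 49.3 CPM in 3 WT mice. Itgad, which overlaps Cox6a2 on the other strand, ran from 0 to 44.1 CPM, and in mutant FrE from 0 to 7.82 CPM.

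Cox6a1, the paralog that supplies subunit VIa in most tissues, was present in every library. It was at 907, 991, 835, 926 and 494 CPM in mutant FrE, against 706, 914, 759, 369 and 561 CPM in WT FrE, and these groups overlapped. Its fitted log2 fold change there was 0.11 ± 0.31 (SE; edgeR quasi-likelihood test, adjusted p = 0.9993). In FrB Cox6a1 rose in mutants, to 1237 ± 122 CPM, against 857 ± 133 CPM in WT (SD, n = 5 each; edgeR log2 fold change 0.85 ± 0.24, adjusted p = 0.0443), and all 5 mutant libraries were above all 5 WT libraries. That call was lost without the low-complexity libraries (adjusted p = 0.296) and in 8 of 10 fits that left out 1 library. Of the 15 nuclear cytochrome c oxidase genes listed beside Cox6a2, 13 were tested in FrB and 4 rose in mutants (Cox5a, Cox7a2, Cox4i1 and Cox6a1), none of which was called without the low-complexity libraries. Of all genes tested in FrB, 7.37% were called in either direction. None of the 13 tested in FrC, FrD or FrE was called, beside 0.0%, 0.00996% and 0.0% of all genes. In FrE their median log2 fold change was 0.11, beside -0.10 over all genes tested.

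**Figure D4:**
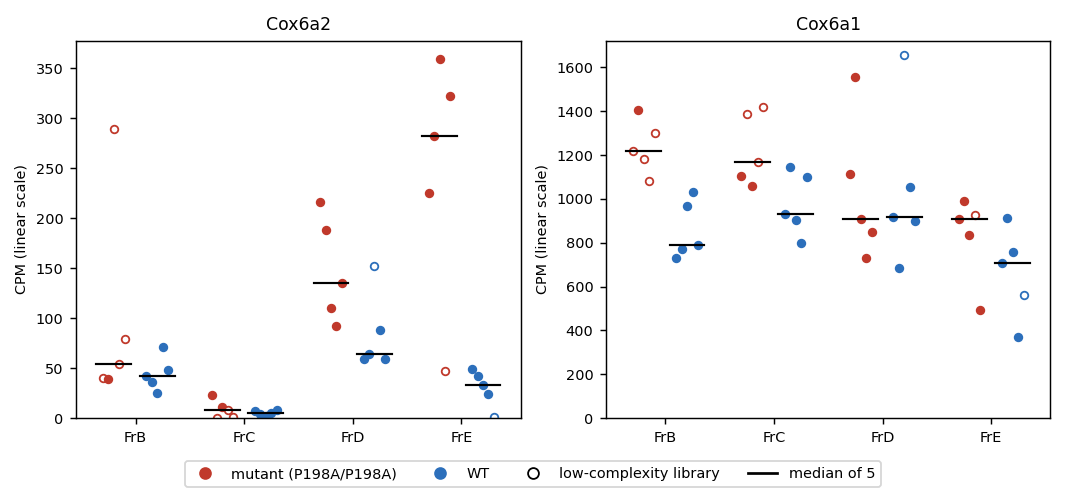
Cox6a2 (left) and its paralog Cox6a1 (right) in CPM on linear axes from 0, per library, by fraction, mutant (red) left of WT (blue); open points are low-complexity libraries and bars are medians of 5. In FrE 4 of 5 mutant libraries hold 225 to 360 CPM of Cox6a2, above all WT libraries (0.70 to 49.3 CPM), while Cox6a1 overlaps between genotypes.

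The 10 genes most like Cox6a2 over the 40 libraries were S100a11 (r = 0.67), Cnot4 (0.67), Nptn (0.65), Arl5c (0.64), Bcl10 (0.64), Txndc11 (0.63), Ube2h (0.63), Mier3 (0.63), Marcks (0.62) and Hist3h2a (0.61). S100a11 encodes a calcium-binding S100 protein, Nptn a cell surface protein of the immunoglobulin superfamily, Bcl10 an adaptor of antigen receptor signalling to NF-kappaB, and Marcks a membrane substrate of protein kinase C. None of these was among the 10 most like Siglech. S100a11 had medians of 130.2 CPM in mutant FrE and 109 CPM in WT FrE, and 19.8 CPM in mutant FrC and 35.8 CPM in WT FrC. Marcks had medians of 369 CPM in mutant FrE and 214 CPM in WT FrE, and 146.6 CPM in mutant FrC and 159 CPM in WT FrC. Among the other 8 members, Cybb was most like Cox6a2 (r = 0.53). The same r over the 30 libraries not of low complexity was 0.50 (Mier3) to 0.75 (Marcks) for these 10 genes and 0.67 for Cybb.

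Tcf4, on chromosome 18 (69343356 to 69689079, plus strand), was present in all libraries, at 54.3 to 452 CPM. FrB had 452, 147, 68.3, 295 and 449 CPM in mutants and 149, 174, 144, 194 and 191 CPM in WT, and FrE had 85.0, 257, 145, 332 and 216 CPM in mutants and 152, 120.2, 103, 239 and 349 CPM in WT. The group medians ran from 93.4 CPM in WT FrC to 295 CPM in mutant FrB, and the genotypes overlapped in each fraction. In the 10 FrC libraries, where Siglech was at most 13.3 CPM, Tcf4 was still at 90.7, 219.8, 98.4, 237 and 171 CPM in mutants and 79.5, 55.8, 93.4, 149.7 and 152 CPM in WT.

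Rnase6 (chromosome 14, 51123908 to 51132187, plus strand), a ribonuclease of the RNase A family with antimicrobial activity, had the lower median in mutants in each fraction. In FrB the mutants had 10.5, 64.2, 3.61, 0.74 and 38.3 CPM, against 231, 238, 125, 317 and 158 CPM in WT, and the groups did not overlap. In FrD the values were 177, 269, 159, 149 and 124 CPM in mutants and 366, 576, 156, 340.2 and 406 CPM in WT, overlapping through the low-complexity library of WT mouse 3. FrE was the highest fraction, with 518, 557, 575, 522 and 570.0 CPM in mutants and 1532, 802, 1036, 818 and 407 CPM in WT, overlapping through the low-complexity library of WT mouse 7. The mutant FrE libraries thus stood between 518 and 575 CPM, while Siglech in them ran from 0 to 836 CPM. FrC was lowest, at 38.7, 13.6, 18.5, 1.74 and 0.62 CPM in mutants and 49.9, 25.5, 29.7, 65.5 and 27.9 CPM in WT.

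Ly6d (chromosome 15, 74762056 to 74763620, minus strand), a GPI-anchored surface protein that marks lymphoid progenitors committed to the B lineage, was the most abundant of the 9. Mutant FrD had 1419, 1174, 369, 504.01 and 586 CPM, against 3831, 3554, 1577, 2881 and 5202 CPM in WT FrD, without overlap. FrC did not overlap either, at 320.3, 117, 121, 27.3 and 14.5 CPM in mutants and 453, 419, 519.8, 464 and 510.4 CPM in WT. FrB had 1177, 704, 523, 60.4 and 429.6 CPM in mutants and 1598, 1331, 1347, 1529.8 and 963 CPM in WT, overlapping through mutant mouse 4. FrE had 5815, 3792, 5067, 5224 and 4815 CPM in mutants and 9902, 5713, 8610.1, 5026 and 6255 CPM in WT, which also overlapped.

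Cybb (chromosome X, 9435252 to 9487771, minus strand) encodes gp91phox, the catalytic subunit of the phagocyte NADPH oxidase NOX2, which B cells also carry. FrB had 126, 34.9, 161, 158 and 209 CPM in mutants and 216, 175, 117, 218 and 206 CPM in WT. The mutant value of mouse 5, the only mutant FrB library that is not of low complexity, was the lowest of the 10. FrD had 181, 255, 317, 608 and 329 CPM in mutants and 83.5, 277, 283, 135 and 29.3 CPM in WT, and FrE 269.7, 502.2, 185, 285 and 370.2 CPM in mutants and 387, 339, 332, 717 and 132 CPM in WT. FrC was lowest in both genotypes, at 9.67, 112, 16.7, 3.48 and 117 CPM in mutants and 20.5, 17.9, 31.0, 34.8 and 47.4 CPM in WT. Genotypes overlapped in each fraction. Granulocytes transcribe Cybb too, and the summed level of 16 granulocyte and monocyte genes was 2592 to 58961 CPM in mutant FrB, against 135 to 11592 CPM in WT FrB. In FrD this sum was 12247 to 24321 CPM in mutants (median 15543), against 47.2 to 74962 CPM in WT (median 2427). Its part in the Cybb values was not tested.

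Divided by summed exon length, the WT FrB medians per kilobase were 1810.3 CPM for Ly6d, 86.7 for Rnase6, 62.4 for Cox6a2, 35.5 for Siglech, 35.4 for Cybb, 23.3 for Klk1, 6.35 for Tcf4, 2.37 for Ccr9 and 1.73 for Runx2. In mutant FrE, the same medians were 6811 CPM per kilobase for Ly6d and 415 for Cox6a2, which there stood above Rnase6 (209). The length covers all annotated exons of a gene, 27382 bases for Tcf4 and 10260 for Ccr9. Which transcripts the cells used was not tested, so the order of the genes depends on this choice of length.

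The comparison of mutant with WT cells within each fraction was fitted with edgeR over all genes, and log2 fold changes (mutant over WT) with their SE are given for the members. In FrB, 1 of the 9 members tested was called at an adjusted p under 0.05, Rnase6 (log2 fold change -3.09 ± 0.82), beside 7.37% of all genes tested. The fitted values of the others were -1.16 ± 0.73 for Siglech, 0.69 ± 1.22 for Ccr9, -0.52 ± 0.85 for Runx2, -0.66 ± 1.36 for Klk1, 1.79 ± 0.73 for Cox6a2, 0.97 ± 0.42 for Tcf4, -0.93 ± 0.49 for Ly6d and -0.03 ± 0.48 for Cybb. The fits scale libraries by TMM, so a value can differ from the ratio of mean CPM, and the median over all genes tested was 0.11 in FrB. Without the low-complexity libraries only mutant mouse 5 was left against 5 WT mice, with the lone library taken to vary like those of the WT group. Rnase6 was then at -1.81 ± 0.49 and not called, Cox6a2 at -0.26 ± 0.54, and Cybb at -2.48 ± 0.42 and called, beside 1.2% of all genes. Without mutant mouse 8 alone, Cox6a2 was at 0.47. Groups without overlap were found for 1 member, Rnase6, beside 12.7% of genes.

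In FrC, 5 of the 9 passed the filter on low counts, since Siglech, Ccr9, Runx2 and Klk1 were too low in both genotypes. None of the 5 was called, beside 0.0% of all genes tested (0 of 10299 by edgeR, whose unadjusted p was under 0.05 for 1168, and 601 by DESeq2). The fitted values were 1.75 ± 1.17 for Cox6a2, 2.27 ± 0.77 for Tcf4, -1.12 ± 0.77 for Rnase6, -1.52 ± 0.55 for Ly6d and 1.37 ± 0.76 for Cybb. Without the 3 low-complexity mutant libraries they were 1.68 ± 0.64, -0.14 ± 0.32, -0.47 ± 0.43, -1.09 ± 0.28 and -1.17 ± 0.46 in the same order, so that Tcf4 and Cybb took the other sign. Without mutant mouse 9 alone Tcf4 was at 0.81. Ly6d was the only member without overlap, beside 2.36% of genes.

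In FrD none of the 9 members was called, beside 0.00996% of all genes (1 of 10043 by edgeR, whose unadjusted p was under 0.05 for 530, and 69 by DESeq2). The fitted values were -1.22 ± 0.32 for Rnase6, -2.22 ± 0.41 for Ly6d, 0.76 ± 0.55 for Cybb, 0.52 ± 0.44 for Cox6a2 and -0.06 ± 0.39 for Tcf4. Those of Siglech (-0.64 ± 1.91), Ccr9 (-1.11 ± 2.17), Runx2 (-0.05 ± 1.52) and Klk1 (0.63 ± 1.84) had SEs of 1.52 to 2.17. Without mutant mouse 5 the value of Klk1 was -2.65 and that of Ccr9 -3.42, and without WT mouse 6 that of Ccr9 was 3.08. Without WT mouse 3, the low-complexity library of this fraction, Rnase6 (-1.36 ± 0.26) and Ly6d (-2.34 ± 0.38) were called, beside 0.376% of genes, and Cox6a2 was at 1.05 ± 0.32. Ly6d was the only member without overlap in all 10 libraries, beside 2.19% of genes, and Cox6a2 and Rnase6 joined it without WT mouse 3, beside 5.7%.

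In FrE, 7 members were tested (Ccr9 and Runx2 did not pass the filter) and none was called, beside 0.0% of all genes (0 of 9662 by edgeR, whose unadjusted p was under 0.05 for 512, and 58 by DESeq2). Cox6a2 had the largest fitted value of the 7, 2.96 ± 0.74, followed by Siglech (1.73 ± 2.64) and Klk1 (0.97 ± 2.38). Without mutant mouse 5, Siglech was at -4.73 and Klk1 at -8.25, while Cox6a2 ran from 2.68 to 3.25 over the 10 fits that left out 1 library each. The other values were -0.92 ± 0.30 for Rnase6, -0.74 ± 0.25 for Ly6d, -0.35 ± 0.38 for Cybb and -0.22 ± 0.45 for Tcf4. Without the low-complexity libraries (mutant mouse 9 and WT mouse 7), Cox6a2 was at 2.88 ± 0.33 and called, beside 0.284% of genes, with means of 297 ± 57.6 CPM in 4 mutants and 37.5 ± 10.8 CPM in 4 WT mice. With all 10 libraries the DESeq2 value of Cox6a2 was 2.95. These fits use the libraries by which the gene was chosen. No member was without overlap in all 10 libraries, beside 1.9% of genes, and Cox6a2 and Rnase6 were so without those 2, beside 6.72%.

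In the fit without the low-complexity libraries 3 of 15 B-lineage genes were called in FrE too, beside 0.284% of all genes. Il7r, the interleukin-7 receptor of early B cells, rose (2.94 ± 0.33, edgeR adjusted p = 0.0033), at 166 to 328 CPM in mutant FrE, against 2.96 to 57.9 CPM in WT FrE. Rag2, a subunit of the V(D)J recombinase, rose (4.59 ± 0.83, edgeR adjusted p = 0.0418), at 71.2 to 176 CPM in mutant FrE, against 0.21 to 10.01 CPM in WT FrE. Ms4a1, which encodes CD20 of more mature B cells, fell (-1.78 ± 0.25, edgeR adjusted p = 0.0141), at 1463 to 3182 CPM in mutant FrE, against 2490 to 8641 CPM in WT FrE. These ranges are over all 10 libraries, the lowest Rag2 value of the mutants being 3 counts in mouse 9, and with all of them each of the 3 genes had an adjusted p of 0.127 by edgeR. The part of these B-lineage stage genes in the Cox6a2 difference was not tested.

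**Figure D5:**
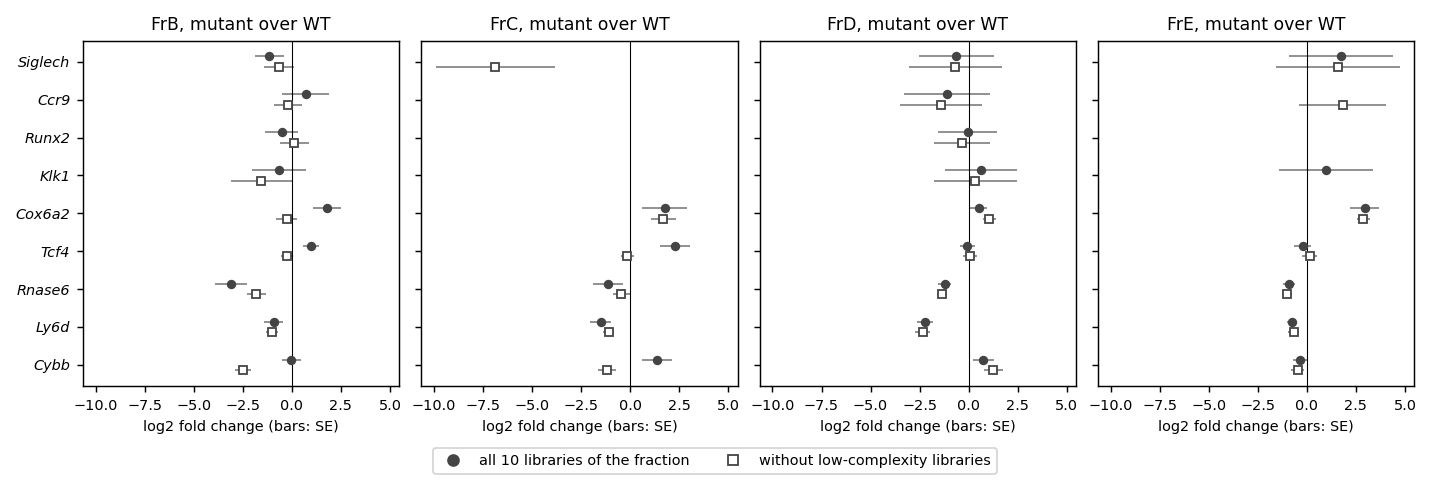
Fitted log2 fold change, mutant over WT, of each gene in each fraction (bars are SE), from all 10 libraries of the fraction (circles) and without the low-complexity libraries (open squares); genes that did not pass the filter on low counts have no point. In FrE Cox6a2 stands at 2.96 and 2.88 with bars that do not reach 0, and the value from all 10 libraries was not called. The bars of Siglech and Klk1 there are wide and cross 0.

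Steps between consecutive WT fractions (later over earlier) were fitted on the 20 WT libraries. From FrB to FrC all 9 fitted values were below 0. Siglech was at -5.66 ± 1.83, Ccr9 at -5.95 ± 2.00, Runx2 at -5.86 ± 1.92, Klk1 at -9.19 ± 2.097 and Cox6a2 at -3.12 ± 0.69. Those of the genes shared with the B lineage were -0.78 ± 0.36 for Tcf4, -2.52 ± 0.37 for Rnase6, -1.61 ± 0.25 for Ly6d and -2.71 ± 0.51 for Cybb. The FrC and FrB libraries did not overlap for 8 of the 9, all but Tcf4, beside 7.54% of genes, and 3 of 9 were called lower (Cybb, Rnase6 and Ly6d), beside 0.166% of genes. With the mouse as a block Klk1, Rnase6 and Ly6d were called, beside 0.14%, and without the low-complexity libraries Cybb, Klk1, Cox6a2, Rnase6 and Ly6d were, beside 1.38%.

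From FrC to FrD 5 of 9 were called higher, beside 2.95% of genes: Cybb (2.75 ± 0.51), Klk1 (7.78 ± 1.99), Cox6a2 (4.30 ± 0.73), Rnase6 (3.41 ± 0.38) and Ly6d (3.06 ± 0.27). Siglech was at 5.18 ± 1.79, Ccr9 at 4.87 ± 1.91, Runx2 at 4.88 ± 1.84 and Tcf4 at 0.65 ± 0.36. The value of Ccr9 was 0.51 without mouse 6. The same 5 were called higher with the mouse as a block, beside 2.05% of genes, and Ccr9 and Runx2 with them without the low-complexity libraries, beside 8.54%. Cox6a2, Rnase6 and Ly6d did not overlap between FrD and FrC, beside 12.0% of genes.

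From FrD to FrE Rnase6 (1.30 ± 0.36) and Ly6d (1.06 ± 0.25) were called higher, 2 of 9 beside 2.88% of genes. Both were called higher with the mouse as a block, beside 1.54%, and Cybb with them without the low-complexity libraries, beside 4.31%. Cox6a2 went the other way, at -1.68 ± 0.65, and was the only member whose libraries did not overlap between the fractions (0.70 to 49.3 CPM in WT FrE, against 58.9 to 152 CPM in WT FrD), beside 3.58% of genes. Without the low-complexity libraries its value was -0.85 ± 0.40. In the mutants the Cox6a2 medians were 282 CPM in FrE and 135 CPM in FrD. The difference between genotypes in this step was not tested, since the gene was chosen for its levels.

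Other genes of pDCs were taken from a list of 25 chosen as rarely ascribed to B-lineage cells. Some of them were among the genes most like Siglech here. Of the 9610 genes ranked, Cd300c was 2nd, Lair1 6th, Pltp 11th and Cd209d 13th. Others of the list did not follow Siglech. Plac8 was at 276 to 6021 CPM over all libraries (r = 0.079 to Siglech). Pld4 was at 309 to 1218 CPM in WT FrE (r = 0.035 to Siglech over all libraries). The list is therefore no measure of pDCs alone. Beside 7.37% of all genes called in FrB, 0.0% in FrC, 0.00996% in FrD and 0.0% in FrE, none of the list was called between genotypes. Of the list, 24 genes were tested in FrB, 15 in FrC, 18 in FrD and 21 in FrE. Their median log2 fold changes were -0.59, 0.34, 0.30 and 0.36, beside 0.11, 0.09, -0.07 and -0.10 over all genes tested. Bst2, which encodes the surface antigen by which mouse pDCs are often sorted, was at 104, 91.4, 0.8, 37.7 and 73.2 CPM in mutant FrB, against 127, 79.2, 79.5, 87.5 and 91.7 CPM in WT FrB. Its log2 fold change was -0.44 ± 0.71 (edgeR adjusted p = 0.733), and B-lineage cells can transcribe it as well. Without the low-complexity libraries 2 of 22 rose in mutant FrE, beside 0.284% of all genes called in either direction. They were Atp1b1, a sodium pump subunit (2.09 ± 0.30, edgeR adjusted p = 0.0163), and Cacna1e, a calcium channel subunit (2.62 ± 0.46, edgeR adjusted p = 0.0377). With all libraries Atp1b1 was at 356 to 849 CPM in mutant FrE, against 64.0 to 154 CPM in WT FrE, without overlap (adjusted p = 0.127), and Cacna1e at 0 to 360 CPM in mutants against 17.8 to 244 CPM in WT. Their likeness to Siglech was 0.01 for Atp1b1 and 0.13 for Cacna1e (-0.16 and 0.29 without the low-complexity libraries). Their likeness to Cox6a2 was 0.50 for Atp1b1 and 0.51 for Cacna1e with all libraries, and 0.68 and 0.80 without the low-complexity ones.

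Over the WT steps the same list gave 1 lower of 24 from FrB to FrC, beside 0.166% of all genes. This was Ly6c2, a Ly6 surface antigen of pDCs and monocytes. It was at 15.8 ± 14.4 CPM in FrC, against 602 ± 466 CPM in FrB (log2 fold change -5.35 ± 1.10, edgeR adjusted p = 0.045), and the call was lost in 4 of 5 fits without 1 mouse and with the mouse as a block. From FrC to FrD 3 of 24 rose, beside 2.95% of all genes: Atp1b1 (2.18 ± 0.34, adjusted p = 0.000543 by edgeR), Cacna1e (3.15 ± 0.68, adjusted p = 0.0078) and Ly6c2 (3.41 ± 1.004, adjusted p = 0.0495). Cacna1e lost its call without mouse 1 or mouse 2 (highest adjusted p 0.0721), and Ly6c2 in 4 of 5 such fits and with the mouse as a block. From FrD to FrE 2.88% of all genes were called higher. Pld4, an endosomal exonuclease that limits Toll-like receptor signalling, rose in that step to 787 ± 360 CPM, against 125 ± 53.4 CPM in FrD, without overlap (2.62 ± 0.41, edgeR adjusted p = 0.000485). Atp1b1 fell there (-2.09 ± 0.34, edgeR adjusted p = 0.000656), and Lag3 was called higher at 0 to 14.1 CPM in FrE and 0 to 0.042 CPM in FrD, a call lost in 4 of 5 fits without 1 mouse and with the mouse as a block.

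The 16 pDC genes that B-lineage cells also transcribe had 1 call between genotypes with all libraries, in FrB, beside 7.37% of all genes there. This was Bcl11a, a transcription factor of both lineages. It rose in mutant FrB to 275 ± 128 CPM, against 128 ± 32.9 CPM in WT (1.41 ± 0.38, edgeR adjusted p = 0.0358), without overlap, but was not called without the low-complexity libraries or in 7 of 10 fits without 1 library. Blnk, an adaptor of B cell receptor signalling, was at 538 to 941 CPM in mutant FrD, against 975 to 2234 CPM in WT FrD, without overlap (-1.39 ± 0.25, edgeR adjusted p = 0.149), and was called lower in mutants without the low-complexity libraries (-1.46 ± 0.22, adjusted p = 0.0144). From FrD to FrE in WT mice Irf8, the interferon regulatory factor of dendritic and B cells, rose to 579 ± 297 CPM, against 123 ± 73.7 CPM in FrD (2.23 ± 0.43, edgeR adjusted p = 0.0029). Mef2c rose with it, to 394 ± 170 CPM, against 74.0 ± 18.1 CPM in FrD (2.44 ± 0.31, edgeR adjusted p = 6.96e-05), and neither gene overlapped. In all, 3 of 16 rose in that step (Mef2c, Irf8 and Jchain), beside 2.88% of all genes, and 1 fell (Blnk). With the mouse as a block only Mef2c and Irf8 were called. From FrC to FrD Blnk, Spib and Grn rose, beside 2.95% of all genes, and Mef2c and Jchain fell. None of the 16 was called from FrB to FrC, beside 0.166% of all genes called lower.

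Cyba encodes p22phox, the membrane partner that stabilises gp91phox, and like Cybb was lowest in FrC among the WT fractions. It was at 427, 409.6, 418, 479 and 335 CPM in FrB, 157, 169, 144, 239 and 194 CPM in FrC, 318, 333, 339, 354 and 412 CPM in FrD and 863, 683, 931, 894 and 782 CPM in FrE. It fell from FrB to FrC (-1.29 ± 0.22, edgeR adjusted p = 0.0076), then rose in FrD (1.22 ± 0.21, adjusted p = 0.0013) and again in FrE (1.18 ± 0.21, adjusted p = 0.0018), with no overlap at any step. The first call was lost without mouse 1 or mouse 2. Ncf4, a cytosolic subunit of NOX2, also rose from FrD to FrE (1.75 ± 0.32, edgeR adjusted p = 0.0018). In FrB the cytosolic subunit Ncf1 was called higher and the GTPase Rac2 lower in mutants. Rac2 was at 627 ± 319 CPM in mutants and 1746 ± 148 CPM in WT (-1.27 ± 0.28, edgeR adjusted p = 0.0156), without overlap, and was not called without the low-complexity libraries. Ncf1 was at 207 ± 163 CPM in mutants and 48.3 ± 21.3 CPM in WT (SD, n = 5 each), its call was lost in 8 of 10 fits without 1 library, and without the low-complexity libraries its log2 fold change was -2.03 and not called. None of Cyba, Ncf1, Ncf4 and Rac2 was called between genotypes in FrC, FrD or FrE.

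Around Tcf4 and Runx2, 9 genes of E proteins, their inhibitors and RUNX factors were listed, and all 9 were tested in FrB, where 2 rose in mutants, beside 7.37% of all genes called there in either direction. Tcf3, which encodes the E proteins E12 and E47, was at 215 ± 78.4 CPM in mutants and 57.8 ± 13.0 CPM in WT (2.33 ± 0.46, edgeR adjusted p = 0.0092), without overlap, and was also called without the low-complexity libraries (1.51, adjusted p = 0.036). Runx3 was at 25.8 to 629 CPM in mutants and 2.32 to 23.8 CPM in WT (4.45 ± 0.98, edgeR adjusted p = 0.0146) and was not called without those libraries. Tcf12, which encodes the E protein HEB, was called lower in mutant FrD without the low-complexity libraries (-1.43 ± 0.25, edgeR adjusted p = 0.0272) but not with all of them (-1.32 ± 0.29, adjusted p = 0.28). Over the WT steps Tcf12 rose from FrC to FrD (1.82 ± 0.38, edgeR adjusted p = 0.0055) and fell from FrD to FrE (-1.92 ± 0.38, edgeR adjusted p = 0.0034), the first call being lost without mouse 1. Cbfa2t3, a corepressor that binds E proteins, rose from FrC to FrD (edgeR adjusted p = 0.0127, lost without mouse 1 or mouse 3 and by DESeq2), and Runx1 fell from FrD to FrE (-1.81 ± 0.35, edgeR adjusted p = 0.003, lost without mouse 1).

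Markers of other cells that the B220 gates could hold varied as well. Zbtb46, which defines conventional dendritic cells, had no count in 27 of 40 libraries and was at most 6.56 CPM. Cd3e of T cells was at 0 in 29 libraries and at most 2.16 CPM. Ncr1 of NK cells was at 0 in 24 but reached 70.4 CPM in WT FrD. In mutant FrD the median of Ncr1 was 23.7 CPM and its maximum 40.6 CPM. Mcpt8 of basophils was at 0 in 14 libraries. It reached 2227 CPM in mutant FrD (median 1.10 CPM) and 1744 CPM in WT FrE (median 0.515 CPM). Summed over 16 granulocyte and monocyte genes, mutant FrE ran from 33.7 to 71446 CPM (median 1723), against 44.0 to 6366 CPM (median 130) in WT FrE. In the same sum mutant FrD ran from 12247 to 24321 CPM (median 15543), against 47.2 to 74962 CPM (median 2427) in WT FrD. Among these genes, S100a8 in FrD had a log2 fold change of -2.70 ± 2.54 with all libraries. Without the low-complexity library of WT mouse 3 it was 7.01 ± 1.62, and neither fit called it. In FrB 3 of those 16 (Mmp8, Mpo and Mmp9) were called higher in mutants with all libraries and none without the low-complexity ones. Summed over 15 B-lineage genes, mutant FrE ran from 18701 to 27930 CPM, against 13704 to 36626 CPM in WT FrE. Of the other lists in FrB, 1 of 9 conventional dendritic cell genes rose in mutants (Wdfy4, lost without the low-complexity libraries), 2 of 8 plasma cell genes fell (Xbp1 and Derl3), 4 of 15 B-lineage genes rose (Ebf1, Rag1, Vpreb1 and Vpreb2) and 3 fell (Cd79a, Cd79b and Ms4a1), 1 of 4 genes of the sorting antigens rose (Spn, which encodes CD43), and none of 9 T and NK cell genes or of 1 basophil, mast and eosinophil gene tested was called, beside 7.37% of all genes. Of those B-lineage, plasma cell and sorting antigen genes, Cd79b, Ms4a1 and Derl3 were also called without the low-complexity libraries and the others were not. No gene of any list was called between genotypes in FrC, FrD or FrE with all libraries, beside 0.0%, 0.00996% and 0.0% of all genes. In FrD Cd79a was called lower in mutants without the low-complexity libraries (-1.28 ± 0.18, edgeR adjusted p = 0.0116) and the granulocyte gene Csf3r higher in the same fit, beside Blnk and Tcf12 as given above and 0.376% of all genes. In the WT steps the plasma cell genes Xbp1 and Mzb1 were lower in FrC than in FrB (-2.57 ± 0.44 and -1.48 ± 0.31, edgeR adjusted p = 0.0079 and 0.045), the step in which members fell too, with the calls lost in 3 of 5 and 5 of 5 fits without 1 mouse and that of Mzb1 also with the mouse as a block. Tnfrsf17, a receptor of plasma cells, was at 0 to 26.5 CPM in FrC, 0 to 0.049 CPM in FrD and 0 to 37.6 CPM in FrE, and was called lower from FrC to FrD (lost in each fit without 1 mouse and with the block) and higher from FrD to FrE (lost in 2 of 5 fits). From FrD to FrE Xbp1 was called higher (lost in 4 of 5 fits without 1 mouse) and Irf4 lower. No conventional dendritic cell, granulocyte and monocyte or T and NK cell gene was called in those steps, and from FrD to FrE the basophil and eosinophil genes Prg2 and Mcpt8 were called higher, each call being lost in 4 of 5 fits without 1 mouse. The most abundant gene of the pDC list, by its mean over all libraries, was Plac8 (276 to 6021 CPM), that of the shared list Jchain (0.21 to 47967 CPM), that of the cytochrome c oxidase list Cox4i1 (607 to 2742 CPM), that of the NOX2 list Rac2 (211 to 3759 CPM) and that of the E protein and RUNX list Id3 (3.61 to 804 CPM). The part of other cells in the values of the 9 genes was not tested.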

How the data were processed

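Gene counts of 40 libraries, each from 100 sorted cells, were used as the authors deposited them: whole-number read counts per Ensembl gene, not normalized. Per the labels' protocols, libraries were made by Smart-seq2 with ERCC spike-ins. HISAT2 2.1.0, featureCounts 1.4.6, Subread and DESeq2 and the build mm10 are named in the submitters' processing notes, without roles. The counting's strand setting was not stated in the sources used here. Without it, reads of overlapping genes on opposite strands cannot be told apart, and reads of near-identical paralogs may be split.

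The 92 ERCC rows were left out of totals and tests. CPM are counts per 1000000 endogenous counts. Groups come from the titles, and all 40 sample columns were mapped. Genotype effects (5 mutant against 5 WT libraries within a fraction) and WT steps (20 WT libraries) were fitted with edgeR 4.0.16 in R 4.3.3 (TMM scaling, filterByExpr at minima of 10 counts per gene and 15 in total, robust quasi-likelihood test, Benjamini-Hochberg adjustment over all genes tested, called under an adjusted p of 0.05). The SE of a log2 fold change was its size over the square root of F. The fits were tested on simulated data with known changes. Figures were drawn with matplotlib 3.10.9.

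The members and the gene lists were chosen with earlier results of these data known. Named besides the members were list genes that were called (at most 5 of lowest p per list and comparison), the most abundant gene of each list, the 10 genes most like Siglech and Cox6a2, Cox6a1, Cyba and Bst2. Genes beyond these were named after their values were seen: those that entered or left a call in an alternative, the defining markers, the overlapping genes and Klk1b27. Some list genes are not reported here.

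The fractions of 1 mouse share an animal, so mouse numbers pair the libraries of the WT steps. The correlation of same-mouse deviations from the group means was -0.126 to 0.103 over 15 pairs. Mice differ between genotypes, so those effects are unpaired. Alternatives were RLE scaling, no filter, DESeq2 1.42.0, the mouse as a block, leaving out each library or mouse, and leaving out the 10 libraries in which over 15% of detected genes had 1 to 9 counts (the lowest of them at 16.4%, the highest of the others at 14.7%).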

Additional observations from a re-analysis of the deposited data

Results flagged for a closer look

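Of the 72 combinations of gene and group, 18 held a library that stood apart from the 4 others of its group by Dixon's test (the gap to the nearest library over the whole range above 0.71 for 5 libraries), always the highest of the group. Chance marks about 5% of such groups where values are normally distributed. These CPM values are untransformed and skewed and the genes share libraries, so that rate is no yardstick for the count of 18.

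FrE of mutant mouse 5 stood apart for 4 genes, at 836 CPM for Siglech, 99.1 CPM for Ccr9, 85.0 CPM for Runx2 and 322 CPM for Klk1. FrD of the same mouse stood apart for 3, at 326 CPM for Siglech, 21.5 CPM for Ccr9 and 112 CPM for Klk1, and its FrC for Ccr9 at 2.82 CPM. Among the other mutants, mouse 10 stood apart for Ccr9 in FrB (116 CPM), mouse 9 for Klk1 in FrB (87.8 CPM) and for Siglech in FrC (7.54 CPM), and mouse 8 for Cox6a2 in FrB (289 CPM). All of these but FrE and FrD of mouse 5 are low-complexity libraries.

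Among WT mice, mouse 1 stood apart for Klk1 in FrB (132 CPM) and Siglech in FrC (13.3 CPM), mouse 2 for Klk1 in FrD (54.3 CPM) and Ccr9 in FrE (19.6 CPM), mouse 3 for Ccr9 in FrC (1.59 CPM), and mouse 6 for Ccr9 in FrD (50.1 CPM). None of these WT libraries is of low complexity. A library stood apart for Cox6a2 in 1 of its 8 groups, and for Tcf4, Rnase6, Ly6d and Cybb in none.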

How the results depend on the processing

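Genes called in the 7 comparisons (FrB, FrC, FrD, FrE, then the WT steps from FrB to FrC, FrC to FrD and FrD to FrE) numbered 778, 0, 1, 0, 19, 598 and 608 with edgeR, and 1819, 601, 69, 58, 143, 1289 and 1461 with DESeq2. Without the low-complexity libraries they were 152, 0, 39, 28, 174, 1874 and 1038, and without the filter on low counts FrE had 5. With the mouse as a block the paired WT steps gave 16, 445 and 359 calls. Leaving out 1 library or mouse gave 264 (without WT mouse 1) to 1937 (without mutant mouse 5) calls in FrB, 0 to 0 in FrC, 0 to 39 in FrD (the highest without WT mouse 3), 0 to 21 in FrE (the highest without WT mouse 7), and 3 to 22, 188 to 669 and 252 to 498 over the WT steps. Of the list genes called with all libraries, Mpo and Ncf1 in FrB took the other sign without the low-complexity libraries (log2 fold changes -1.97 and -2.03, against 7.92 and 2.66 with all), and those values were not called. Among values called in neither fit, signs changed as well, for example for Lag3 in FrB (-4.07, against 2.86 with all), Ly6c2 in FrC (-7.33, against 1.38) and Mmp8 in FrD (6.50, against -0.99). The causes of these changes, the smaller number of samples among them, were not tested. Of 689 alternative values of the members' 57 fitted log2 fold changes, 27 moved by more than the spread between replicates. FrE of mutant mouse 9, with 42111 counts, cannot resolve levels under 71.2 CPM (3 counts).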
